A study of Mus musculus with 9 samples.

Results

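Mouse embryonic stem cells (ESCs) carrying 2 extra copies of the transcription factor gene Myc were compared with cells carrying no extra copy, both sorted from induced mosaic cultures. The samples were chosen by their labels, and 6 of the 9 libraries in the series were compared, 3 for each population. The genes were all those that passed a filter on low counts, 13424 of the 35771 in the count table. All libraries had the genotype homozygous iMOS T1-Myc with RERT, on a mixed background. The iMOS T1-Myc allele is an inducible construct that gives cells with or without an extra Myc copy, marked by the yellow fluorescent protein EYFP, and RERT makes its recombination depend on 4-hydroxytamoxifen. Both populations came from cultures grown on gelatin with LIF and treated with 20 µM 4-hydroxytamoxifen for 24 h, and they were sorted by EYFP level 24 h after its removal. The remaining 3 libraries came from sorted, uninduced cultures of the same genotype, and their levels are given beside those of the compared populations. They also entered the fit, where they add to the estimate of the spread behind every p-value. The sources used here give neither the promoter of the extra copies nor whether the sort separated recombined cells without EYFP from cells that had not recombined. The population with no extra copy is therefore defined by EYFP level alone.

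Myc binds DNA as a dimer with its partner Max, most often at the E-box sequence CACGTG, and raises transcription of many genes of growth and biosynthesis. Mxd and Mnt proteins compete for Max, and the relatives Mycn and Mycl can stand in for Myc. In ESCs Myc is known for its part in self-renewal and in a competition in which cells with less Myc are removed by neighbours with more. The comparison asks how the transcriptome differs with Myc dose between cells sorted from mosaic cultures.

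The libraries held from 4165286 to 8872303 expected counts. Levels are given in CPM, counts brought to a common library total, which are not divided by transcript length and are compared only within a gene. Replicate 1 with 2 extra copies stood apart from the others of its group, with a chi-square per degree of freedom of 2.61 and 2.97 against them, where all other pairs within a group lay between 1.36 and 1.8. Levels also followed transcript length differently between libraries, as described at the end. Of 6 ESC markers (Pou5f1, Sox2, Nanog, Zfp42, Esrrb and Dppa5a), all were detected, and their summed level was 2880 to 3060 CPM with 2 extra copies and 3150 to 3210 CPM with no extra copy.

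Myc itself (ENSMUSG00000022346; GRCm38 chromosome 15, 61985391 to 61990374, plus strand) stood at 138, 147 and 141 CPM with 2 extra copies, against 31.8, 30.6 and 32.4 CPM with no extra copy. The populations were far apart and the spread within each was small, a 4.52-fold difference (log2 2.18, SE 0.066, adjusted p = 6.81e-23). Uninduced cells stood lower still, at 11.5, 14.1 and 14.2 CPM. The counts do not separate transcripts of the extra copies from those of the endogenous gene, so this is the sum of both. Mycn fell with 2 extra copies, from 151, 151 and 156 CPM to 125, 126 and 127 CPM (1.21-fold lower; log2 -0.27, SE 0.044, adjusted p = 3.33e-05). Its groups did not overlap, and the uninduced cells were highest, at 186, 186 and 189.8 CPM. Max, the dimer partner through which Myc binds DNA, rose from 88.6, 89.3 and 87.9 CPM to 109, 110.2 and 115 CPM (1.26-fold; log2 0.33, SE 0.052, adjusted p = 2.51e-05), while uninduced cells held 85.6, 93.8 and 88.8 CPM. Every library with 2 extra copies was above every other library for Max. Mycl was low and did not pass the test (log2 -0.13, SE 0.12, adjusted p = 0.514). A two-sided exact permutation test of the 6 libraries (20 arrangements) gave p = 0.1 for Myc, Mycn and Max, the smallest it can give, and p = 0.6 for Mycl.

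Of 18 genes of the wider Myc network, 6 rose and 1 fell. A gene is said here to have risen or fallen when its adjusted p in the quasi-likelihood test of edgeR was below 0.05, which held for 8.3% of all genes tested in the upward and 7.7% in the downward direction. Beside Myc and Max these were Ruvbl2, an ATPase of chromatin complexes that Myc recruits (1.22-fold; log2 0.28, SE 0.041, adjusted p = 8.89e-06), its partner Ruvbl1 (1.13-fold), Mxi1, a Max partner that opposes Myc (1.2-fold), and Mlxipl, a related sensor of glucose (1.59-fold). Mycn was the member that fell; without replicate 1 with 2 extra copies, 3 members fell. The other Max partners of the list did not pass the test, with values such as -0.04 for Mnt and -0.23 for Mga on the log2 scale.

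Across the transcriptome 1114 genes were higher and 1034 lower with 2 extra copies, 16.0% of those tested, and the 2 directions differed in size and in level. The rises were small and concerned strongly expressed genes. Their median was 1.17-fold at a median level of 112 CPM, against 26.4 CPM for all genes tested, and only 24.1% of them reached 1.25-fold and 6.1% reached 1.5-fold. Small changes in weakly expressed genes could not be detected, so the level of the rises depends in part on what the test can call. The falls were larger and concerned genes of lower level than the rises. Their median was 1.31-fold at a median level of 32.3 CPM, and 60.6% of them reached 1.25-fold and 27.7% reached 1.5-fold. A difference of at least 2-fold was found in 13 genes that rose and 85 that fell. Of the 4498 genes whose mean was 50 CPM or more, 18.5% rose and 8.25% fell. The split depended on the scaling between libraries. With library size alone, 774 genes (5.77%) rose and 1360 (10.1%) fell, so that 36.3% of the calls were upward in place of 51.9%, and the median of all genes moved from -0.0119 to -0.0473 on the log2 scale. DESeq2 in place of edgeR gave 643 (4.79%) and 418 (3.11%). Without replicate 2 with no extra copy the counts were 751 (5.59%) and 647 (4.82%), and without replicate 3 with 2 extra copies 918 and 648. Without replicate 1 with 2 extra copies they were 1465 (10.9%) and 1112 (8.28%).

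**Figure D1:**
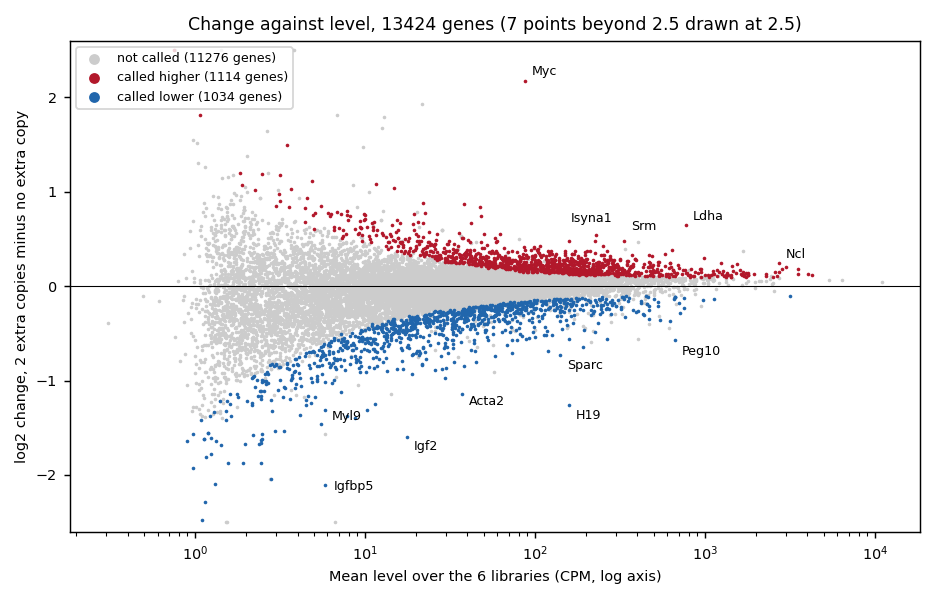
Log2 change between cells with 2 extra copies and cells with no extra copy (y axis) against the mean level in CPM over the 6 libraries (x axis, log scale), 1 point per gene for 13424 genes, with genes that rose, genes that fell and those not called in separate colours. The 1114 rises lie mostly among strongly expressed genes and close to 0, the 1034 falls reach further; 7 genes beyond 2.5 in either direction are drawn at 2.5.

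After Myc, the largest rises among well expressed genes concerned lactate production, inositol and polyamine synthesis, mitosis and a gene family of the two-cell embryo. Ldha, the lactate dehydrogenase that turns pyruvate into lactate (ENSMUSG00000063229; GRCm38 chromosome 7, 46841475 to 46855627, plus strand), stood at 912, 941 and 959 CPM with 2 extra copies, against 608, 594 and 597 CPM with no extra copy. The groups did not overlap, which was a condition for being ranked here. Of all genes tested, 15.4% did not overlap in the upward and 15.2% in the downward direction. Ldha was 1.56-fold higher with 2 extra copies (log2 0.65, SE 0.035, adjusted p = 3.38e-15). Uninduced cells lay between the 2 populations at 831, 777 and 828 CPM. Ldha shares near-identical sequence with other annotated transcripts, so some of its reads could be divided differently.

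Isyna1, which makes inositol from glucose 6-phosphate (ENSMUSG00000019139; GRCm38 chromosome 8, 70594373 to 70597290, plus strand), stood at 264, 279 and 275 CPM with 2 extra copies, against 186, 188 and 186 CPM with no extra copy (1.46-fold; log2 0.55, SE 0.042, adjusted p = 4.09e-11). Uninduced cells were lower than both populations, at 149, 138 and 152 CPM. Srm, the spermidine synthase (ENSMUSG00000006442; GRCm38 chromosome 4, 148591503 to 148594993, plus strand), stood at 367, 396 and 401 CPM with 2 extra copies, against 279, 278 and 277 CPM with no extra copy (1.4-fold; log2 0.48, SE 0.041, adjusted p = 5.10e-10). Every library with 2 extra copies was above every library of the other groups for both enzymes, with uninduced cells at 244, 252 and 268 CPM for Srm. Hmmr, a spindle and hyaluronan binding protein, rose 1.39-fold to 263 ± 2.94 CPM (SD, n = 3), and Ube2c, the ubiquitin-conjugating enzyme of the anaphase-promoting complex, rose 1.34-fold to 287 ± 11.8 CPM. Further large rises were those of Phlda2, an imprinted growth regulator (1.39-fold), the mitochondrial nucleoside diphosphate kinase Nme4 (1.39-fold), the zinc finger gene Zfp280c (1.47-fold), the protease inhibitor Serpine2 (1.35-fold), and Zscan4b (1.47-fold) and Zscan4f (1.4-fold).

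Ribosome production was the largest group of small, shared rises. Of 47 ribosome biogenesis genes, 41 rose and none fell, and the median log2 change was 0.219. Over all genes 8.3% rose, and over those of 50 CPM or more 18.5%. Ddx21, an RNA helicase of the nucleolus, stood at 636, 642 and 683 CPM with 2 extra copies, against 508, 514 and 522 CPM with no extra copy (1.27-fold; log2 0.35, SE 0.036, adjusted p = 2.27e-08), and uninduced cells held 514, 536 and 532 CPM. Nolc1, a chaperone of small nucleolar ribonucleoproteins, stood at 498, 523 and 530.2 CPM with 2 extra copies, against 427, 393 and 416 CPM with no extra copy (1.26-fold; log2 0.33, SE 0.039, adjusted p = 2.51e-07). In both genes the 3 libraries with 2 extra copies stood above all 6 others, and the cells with no extra copy were close to the uninduced ones. Ebna1bp2, which acts in assembly of the large subunit, rose 1.27-fold and the nucleolar GTPase Gnl3 1.25-fold. The major nucleolar protein Ncl rose 1.18-fold, the box C/D protein Nop56 1.19-fold and the rRNA methyltransferase Fbl 1.17-fold. Members of the list kept to a narrow range, from 0.0413 to 0.346 on the log2 scale. Over all 21 alternative analyses between 35 and 44 members rose, and 33 rose in every one.

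The polymerases that supply rRNA and tRNA rose in part. Of 16 genes of the RNA polymerase I machinery 6 rose and none fell, with a median of 0.112. These included the subunits Polr1b (1.23-fold, log2 0.30, SE 0.044, adjusted p = 9.40e-06), Polr1c (1.14-fold), Polr1d (1.18-fold) and Polr1e (1.26-fold). The others were the initiation factor Rrn3 (1.12-fold) and Tcof1 (1.08-fold), a nucleolar cofactor of rRNA transcription. The list of the RNA polymerase III machinery had about the same median, 0.107. Of its 22 genes none fell and 2 rose, among them the subunit Polr3b (1.18-fold). This count was 1 without replicate 3 with 2 extra copies and without replicate 1 or replicate 2 with no extra copy.

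Ribosomal protein genes moved by less. Of 76 genes, 30 rose and none fell, with a median of 0.0848, the highest being Rplp0 of the ribosomal stalk (1.15-fold; log2 0.20, SE 0.034, adjusted p = 9.09e-05), Rps7 (1.12-fold) and Rps24 (1.12-fold). No member had a negative log2 change: they ran from 0.00813 to 0.202. The count is sensitive to single libraries. It was 58 without replicate 1 with 2 extra copies, 19 without replicate 3 with 2 extra copies and 16 without replicate 3 with no extra copy, and 16 with library size alone. Ribosomal protein genes also have many processed copies in the genome, and Rplp0 and Rps7 share near-identical sequence with other transcripts.

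Translation factors and tRNA synthetases followed the same direction. Of 42 translation factors 22 rose and none fell, with a median of 0.116. Eif1a, which acts in start codon selection, stood at 247, 248 and 247 CPM with 2 extra copies, against 206, 211 and 207 CPM with no extra copy (1.19-fold; log2 0.25, SE 0.039, adjusted p = 1.98e-05), the cap-binding protein Eif4e rose 1.18-fold, and Eef1e1, a part of the tRNA synthetase complex, rose 1.25-fold. The count was 13 with library size alone and 33 without replicate 1 with 2 extra copies. Of 22 cytosolic aminoacyl-tRNA synthetases and their scaffold genes 12 rose and none fell, led by the leucine enzyme Lars (1.17-fold; log2 0.23, SE 0.037, adjusted p = 2.91e-05), the lysine enzyme Kars (1.15-fold) and the arginine enzyme Rars (1.16-fold). In uninduced cells Lars was above both populations, at 524 CPM, and Kars was below both, at 306 CPM. Against the mean with no extra copy, the median log2 level of the synthetase list was 0.126 to 0.189 in uninduced cells. With 2 extra copies it was 0.072 to 0.159. DESeq2 called 7 of the synthetases.

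Genes of nucleotide synthesis were also higher. Of 14 purine synthesis genes 11 rose and none fell, with a median of 0.202. Prps1, which makes the ribose precursor of all nucleotides, stood at 159, 177 and 171 CPM with 2 extra copies, against 134, 134 and 129 CPM with no extra copy (1.27-fold; log2 0.35, SE 0.047, adjusted p = 2.35e-06), and uninduced cells held 152, 158 and 163 CPM, between the populations. The trifunctional enzyme Gart rose 1.16-fold, Pfas 1.18-fold and Atic 1.19-fold; these enzymes act on the way to inosine monophosphate. Exons of a gene on the other strand cover 19.7% of Gart. Of 15 genes of pyrimidine and deoxynucleotide synthesis 5 rose and none fell: Cad (1.11-fold), Dhodh (1.29-fold) and Umps (1.2-fold), which cover the whole pathway to uridine monophosphate, and the kinase Nme1 (1.1-fold) and the CTP synthase Ctps (1.09-fold). That count was 3 without replicate 2 with 2 extra copies, without replicate 1 or without replicate 2 with no extra copy.

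One-carbon and methionine metabolism moved with it. Of 14 genes of serine and folate metabolism 9 rose and none fell, with a median of 0.231. Phgdh, the first enzyme of serine synthesis, rose 1.26-fold (log2 0.33, SE 0.043, adjusted p = 1.48e-06), Psat1 1.19-fold and Psph 1.17-fold, so that all 3 steps were higher, as was the mitochondrial enzyme Shmt2 (1.18-fold) and the glycine cleavage gene Gldc (1.18-fold). These genes differ in where the uninduced cells lie. Psat1 stood at 647, 648 and 649 CPM in uninduced cells, above the 490.3, 513 and 514 CPM with 2 extra copies and the 415, 432 and 424 CPM with no extra copy, while Gldc was lowest in uninduced cells, at 260.4 CPM. Of 10 methionine cycle genes 6 rose and none fell, with a median of 0.210. Mat2a, which makes the methyl donor S-adenosylmethionine, stood at 559.6, 576 and 581 CPM with 2 extra copies, against 494, 483 and 489.6 CPM with no extra copy (1.17-fold; log2 0.23, SE 0.035, adjusted p = 1.44e-05). Ahcy, which removes the product of methylation, rose 1.7-fold from a low level, and Cbs, which draws homocysteine into cysteine synthesis, rose 1.46-fold (log2 0.55, SE 0.095, adjusted p = 8.40e-05). DESeq2 called 3 of the 6, and without replicate 1 with 2 extra copies 1 member fell. Phgdh, Mat2a and Ahcy share near-identical sequence with other transcripts.

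Polyamine synthesis was higher at each of its steps. Odc1, the entry enzyme, rose 1.16-fold, Amd1, which supplies the aminopropyl groups, rose 1.16-fold, and Srm and Sms, which build spermidine and spermine, rose 1.4-fold and 1.1-fold. Smox, which oxidises spermine, fell 1.26-fold. The list holds 11 genes, and its other 6 did not pass the test. Smox lost its call when replicate 1 or replicate 3 with 2 extra copies, replicate 2 or replicate 3 with no extra copy, or uninduced replicate 2 or replicate 3 was left out. Odc1 and Amd1 have near-identical copies.

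The E-box to which Myc and Max bind was searched in the promoters of these genes, on the 250 bases before each gene's start in RefSeq (build GRCm38.p6). Its sequence CACGTG reads the same on both strands. It stood in 6.02% of the 32851 promoters of the table, in 10.1% of the 10212 tested genes that have an entry, in 12.1% of those that rose and in 9.55% of those that fell. In the lists of ribosome biogenesis, purine, pyrimidine, polyamine and methionine genes it stood in 10 of 86 promoters (11.6%), and in ribosome biogenesis alone in 2 of 41. A match is a description of these letters and not a measured binding site. E-boxes after the start or further away were not searched, so a gene without a match may hold one elsewhere. The promoters of the 3 called genes with the smallest p that hold it in these lists are shown, 5′ to 3′ on the gene's strand, with the E-box in capitals: Nop2 (chr6:125131633-125131882, plus strand), an rRNA methyltransferase, Atic (chr1:71556906-71557155, plus strand) and Cbs (chr17:31637206-31637455, minus strand).
Nop2: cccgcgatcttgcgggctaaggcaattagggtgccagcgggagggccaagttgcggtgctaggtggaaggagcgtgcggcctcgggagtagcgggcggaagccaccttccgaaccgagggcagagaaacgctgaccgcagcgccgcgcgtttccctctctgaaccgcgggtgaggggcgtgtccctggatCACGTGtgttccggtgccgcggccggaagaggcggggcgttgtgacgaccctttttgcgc
Atic: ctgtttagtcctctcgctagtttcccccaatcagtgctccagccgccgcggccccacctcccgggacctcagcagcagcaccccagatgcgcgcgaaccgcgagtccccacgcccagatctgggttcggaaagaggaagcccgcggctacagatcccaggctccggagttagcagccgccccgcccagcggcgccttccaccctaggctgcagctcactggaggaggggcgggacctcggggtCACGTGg
Cbs: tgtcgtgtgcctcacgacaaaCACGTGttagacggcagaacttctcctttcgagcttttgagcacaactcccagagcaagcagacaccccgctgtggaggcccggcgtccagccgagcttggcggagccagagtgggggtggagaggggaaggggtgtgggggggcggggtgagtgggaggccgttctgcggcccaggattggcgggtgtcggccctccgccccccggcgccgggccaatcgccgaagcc
The first base of the E-box lies 60 bases before the start of Nop2, 7 before that of Atic and 229 before that of Cbs. Nop2 stood at 281, 304 and 295 CPM with 2 extra copies, against 248, 248 and 245 CPM with no extra copy (1.19-fold), Atic at 277, 295 and 299 CPM with 2 extra copies, against 237, 246 and 249 CPM with no extra copy (1.19-fold) and Cbs at 29.8, 32.9 and 31.6 CPM with 2 extra copies, against 21.4, 21.1 and 22.1 CPM with no extra copy. All 3 were higher in every library with 2 extra copies than in any with no extra copy, as were 96.5% of all genes that rose.

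**Figure D2:**
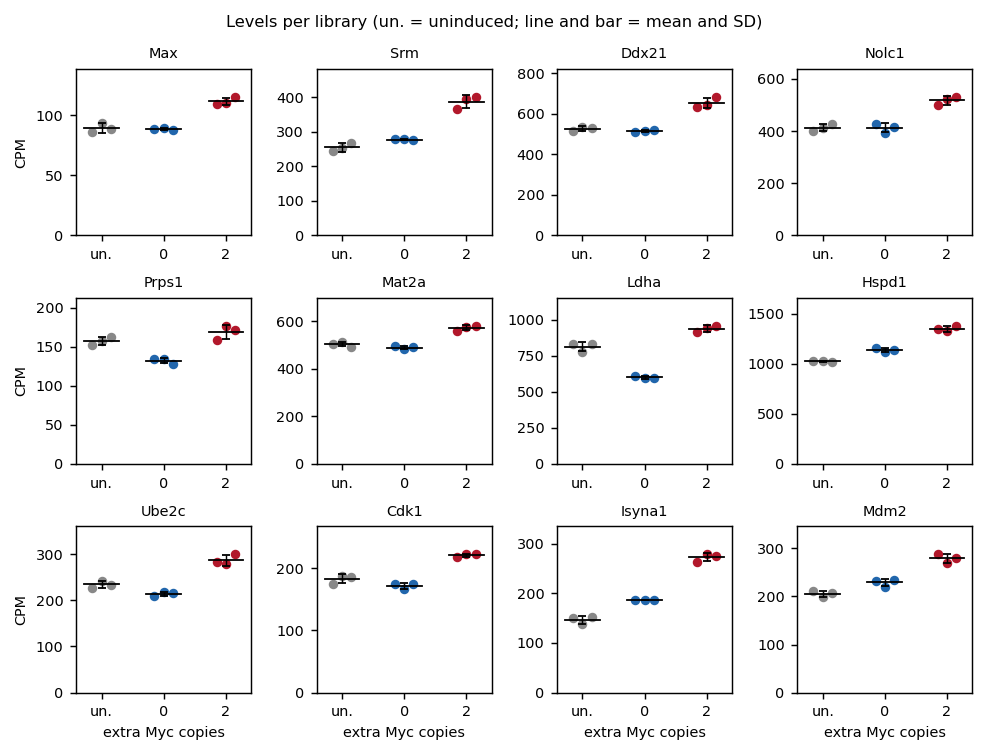
Level in CPM (y axis, linear, from 0) of 12 genes that rose, 1 panel per gene, with 1 point per library and a line and bar for the mean and SD of each group: uninduced (un.), no extra copy (0) and 2 extra copies (2). In Ddx21, Nolc1 and Max the 3 libraries with 2 extra copies lie above the 6 others, while in Ldha and Prps1 the cells with no extra copy lie below the uninduced cells.

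Energy metabolism changed in parts. Of 21 glycolysis and lactate genes 7 rose and 2 fell. Beside Ldha the enolase Eno1 (1.13-fold), Pgam1 (1.11-fold), Pgk1 (1.11-fold) and Pfkp (1.15-fold) rose, as did the lactate carriers Slc16a1 (1.13-fold) and Slc16a3 (1.28-fold). The glucose transporters went the other way. Slc2a1 stood at 356, 402 and 407 CPM with 2 extra copies, against 459, 507 and 475 CPM with no extra copy (1.24-fold lower; log2 -0.31, SE 0.047, adjusted p = 7.39e-05), and Slc2a3 was 1.13-fold lower. Both transporters were highest in uninduced cells, where Slc2a1 reached 744, 704 and 737 CPM. The median log2 level of the whole list was also highest there, at 0.203 to 0.245 against the mean with no extra copy. With 2 extra copies it was 0.000139 to 0.105. All 7 rises and both falls passed the test in every alternative. Eno1 and Pgam1 share near-identical sequence with other transcripts.

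Mitochondrial genes rose in smaller shares. Of 21 genes of the citric acid cycle and pyruvate dehydrogenase 5 rose: Dlst (1.19-fold), Idh3a (1.19-fold), Suclg2 (1.16-fold), Dlat (1.15-fold) and Idh3b (1.11-fold). The count was 10 without replicate 1 with 2 extra copies and 3 without replicate 2 with 2 extra copies or replicate 3 with no extra copy. Of 76 respiratory chain and ATP synthase genes 10 rose, near the background share, led by the complex III genes Uqcrc1 (1.16-fold; log2 0.21, SE 0.041, adjusted p = 4.23e-04) and Uqcrc2 (1.13-fold); it was 18 without replicate 1 with 2 extra copies. Of 78 mitochondrial ribosome genes 14 rose, among them Mrpl1 (1.34-fold) and Mrpl34 (1.25-fold), and 7 without replicate 2 with no extra copy. The share of these 14 was above the 8.3% over all genes and near the 18.5% over genes of 50 CPM or more. DESeq2 called 5 of the list higher, where it called 4.79% of all genes higher. Protein import gave a larger share, with 10 of 29. There the outer membrane receptors Tomm20 (1.15-fold) and Tomm70a (1.18-fold) and the small translocase subunit Tomm5 (1.23-fold) led. None of these 4 lists had a member that fell. In the alternatives 1 import gene fell without uninduced replicate 2, with no filter on low counts and with only the 6 libraries compared, and 1 respiratory chain gene fell with library size alone.

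Protein folding genes were higher in a larger share. Of 16 chaperonin and prefoldin genes 11 rose and none fell, with a median of 0.171. The mitochondrial pair was among them: Hspd1 stood at 1348, 1327 and 1384 CPM with 2 extra copies, against 1164, 1121 and 1135 CPM with no extra copy (1.19-fold; log2 0.25, SE 0.032, adjusted p = 9.25e-07) and its partner Hspe1 rose 1.22-fold. The cytosolic ring complex that folds actin and tubulin was higher in 7 subunits, with Cct8 at 733, 769 and 754 CPM with 2 extra copies, against 664, 648 and 658 CPM with no extra copy (1.15-fold) and Tcp1 at 1.1-fold. At least 9 members rose in every alternative. Hspd1 and Hspe1 have near-identical copies. Of 43 splicing factors 11 rose, including the core proteins Snrpd3 (1.16-fold) and Snrpg (1.17-fold) and Hnrnpa1 (1.13-fold), and the imprinted Snrpn fell 1.16-fold. The splicing count was 22 without replicate 1 and 6 without replicate 3 with 2 extra copies, and 5 and 7 without replicates 2 and 3 with no extra copy. Of 34 proteasome subunits only Psma3 (1.13-fold), Psma7 (1.1-fold) and Psmd7 (1.09-fold) rose, a share near the background. Without replicate 1 with 2 extra copies 12 did, without replicate 2 or replicate 3 of that group or replicate 2 with no extra copy 1 did, and without uninduced replicate 3 5 did. The amino acid transporters Slc7a1 (1.22-fold) and Slc3a2 (1.09-fold) rose among 14 tested. Without replicate 1 with 2 extra copies 4 did, and without replicate 3 of that group or replicate 1 or replicate 2 with no extra copy 1 did.

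Mitosis genes rose as a group while replication genes did not. Of 34 mitosis genes 22 rose and none fell, with a median of 0.208, and 20 of them rose in every alternative. Against the mean with no extra copy, the median log2 level of the list was 0.191, 0.192 and 0.203 with 2 extra copies. In uninduced cells it was 0.164, 0.165 and 0.132, so for the list as a whole the cells with no extra copy were the low group. Cdk1, the kinase that starts mitosis, stood at 218, 223 and 222 CPM with 2 extra copies, against 175, 166 and 175 CPM with no extra copy (1.29-fold; log2 0.37, SE 0.042, adjusted p = 1.48e-07), and uninduced cells held 175, 188 and 186 CPM. Top2a, which untangles chromosomes, stood at 1134, 1047 and 1072 CPM with 2 extra copies, against 877, 876 and 885 CPM with no extra copy (1.23-fold; log2 0.30, SE 0.034, adjusted p = 1.01e-07). Its level in uninduced cells was 1110, 1074 and 1057 CPM, within the range of the libraries with 2 extra copies, so the cells with no extra copy were the low group. The regulators Ccnb1 (1.25-fold), Plk1 (1.27-fold), Aurka (1.2-fold), Aurkb (1.26-fold) and Cdc20 (1.22-fold) rose too, together with the checkpoint kinase Bub1b (1.25-fold) and the spindle motor Kif11 (1.18-fold).

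Of 38 DNA replication genes 4 rose and 9 fell. The licensing factor Cdt1 rose 1.12-fold, while the helicase subunits Mcm5 (1.12-fold) and Mcm4 (1.1-fold), the clamp Pcna (1.08-fold) and the uracil glycosylase Ung (1.29-fold; log2 -0.37, SE 0.051, adjusted p = 3.36e-06) were lower. Single libraries decide these counts. Without replicate 1 with 2 extra copies 2 fell, and without replicate 2 of that group, any 1 of the replicates with no extra copy or uninduced replicate 2, 5 fell. The count that rose was 2 without replicate 2 and 1 without replicate 3 with 2 extra copies, and 1 and 2 without replicates 2 and 3 with no extra copy. Of 22 cyclins, kinases and inhibitors of the G1/S step 2 rose and 5 fell. Cyclins Ccnd1 and Ccna2 rose 1.17-fold and 1.16-fold, and Ccnd2 and Ccnd3 fell 1.44-fold and 1.33-fold. The inhibitor Cdkn1c, an imprinted gene that holds cells in G1, stood at 39.97, 47.2 and 44.3 CPM with 2 extra copies, against 74.8, 77.0 and 64.8 CPM with no extra copy (1.67-fold lower; log2 -0.74, SE 0.073, adjusted p = 9.45e-09). Its uninduced level, 49.5, 46.9 and 47.0 CPM, was close to that with 2 extra copies. The count of falls was 3 without any 1 of the replicates with 2 extra copies, without replicate 2 or replicate 3 with no extra copy and without uninduced replicate 2 or replicate 3. Exons on the other strand cover 67.3% of Gins2, 29.8% of Orc2 and 23.4% of Ccnd1, whose values are uncertain for that reason.

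Genes of p53 and cell death moved in both directions. Of 22 p53 genes and targets 6 rose and none fell, led by Mdm2, the ubiquitin ligase that removes p53, at 288, 270.3 and 280 CPM with 2 extra copies, against 232, 220.5 and 235 CPM with no extra copy (1.22-fold; log2 0.29, SE 0.041, adjusted p = 5.55e-06). Gtse1 rose 1.19-fold, Trp53inp1 1.22-fold and Plk2 1.19-fold, while the cell cycle inhibitor Cdkn1a did not pass the test (log2 0.05, SE 0.064, adjusted p = 0.651). With the GC trend as an offset 10 of the list rose. Of 15 BCL2 family genes Bid rose 1.22-fold and the killer proteins Bmf and Bik fell 1.24-fold and 1.79-fold. Neither fall passed the test when any 1 of the 6 libraries or uninduced replicate 3 was left out, and 1 did without uninduced replicate 2. Without uninduced replicate 3, replicate 1 with 2 extra copies or replicate 2 with no extra copy 2 members of this family rose. Bik stood at no more than a few CPM. Of 14 apoptosome and caspase genes 3 rose and 3 fell. Those that rose are proteins held in mitochondria: cytochrome c, Cycs (1.23-fold), Htra2 (1.28-fold) and Diablo (1.17-fold). Those that fell included the caspase Casp9 (1.3-fold) and the caspase inhibitor Xiap (1.24-fold). Without replicate 2 with no extra copy 1 rose, and without replicate 3 with 2 extra copies 1 fell. Of 9 genes that other studies tied to cell competition 2 fell, Sparc and the polarity gene Llgl2 (1.11-fold); without any 1 of the replicates with 2 extra copies, replicate 2 with no extra copy or uninduced replicate 2, 1 did.

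**Figure D3:**
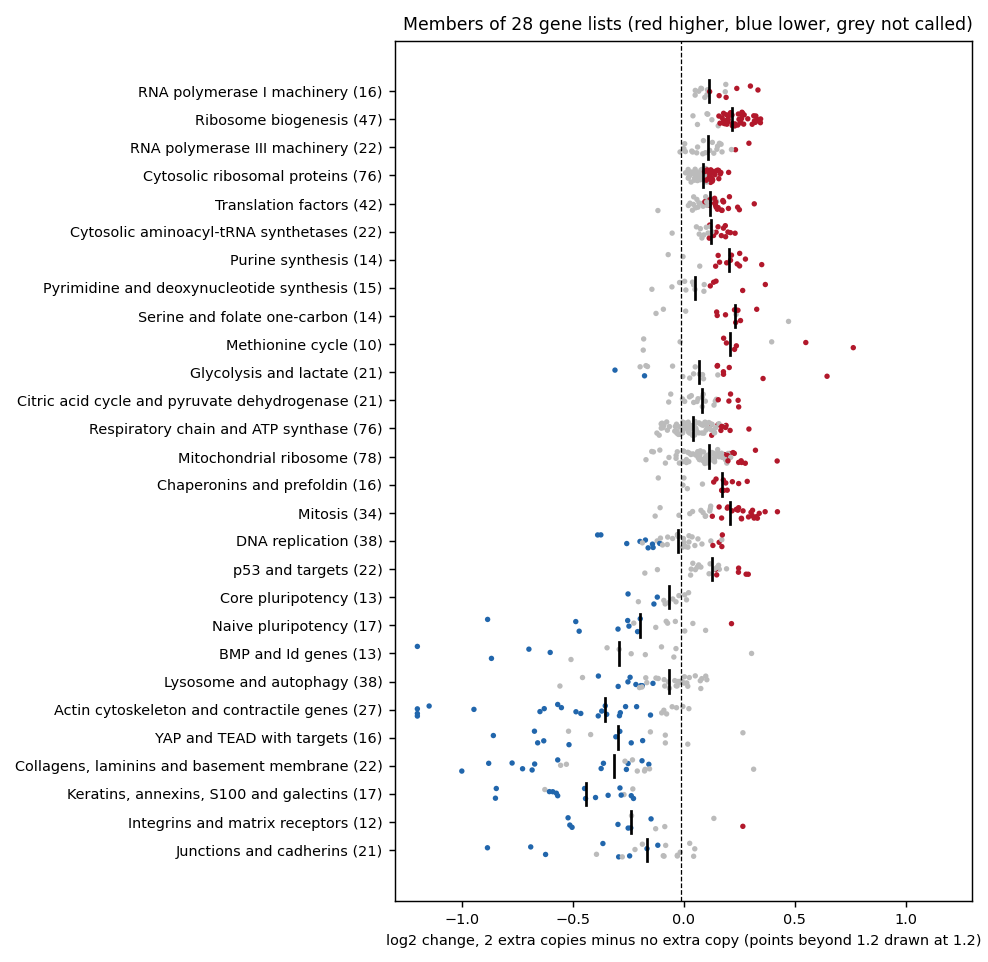
Log2 change between cells with 2 extra copies and cells with no extra copy (x axis) for the members of 28 gene lists (rows), 1 point per tested gene, coloured by whether it rose, fell or was not called, with a bar at each list's median. The dashed line is the median of all genes tested, -0.0119. The medians of the growth, nucleotide, chaperonin and mitosis lists lie right of 0 and those of the actin, matrix, keratin and integrin lists left of it; 4 points beyond 1.2 are drawn at 1.2.

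The falls had a different content. The largest among well expressed genes included imprinted genes (H19, Cdkn1c, Peg3 and Peg10) and genes of the matrix and the cytoskeleton (Sparc, Nid1, Tagln, Cald1 and Krt8), with the hypoxia factor Epas1 and Akap2. Sparc, a secreted protein that binds collagen (ENSMUSG00000018593; GRCm38 chromosome 11, 55394500 to 55423183, minus strand), stood at 101, 108 and 108 CPM with 2 extra copies, against 168, 179 and 178 CPM with no extra copy (1.65-fold lower; log2 -0.73, SE 0.047, adjusted p = 5.88e-13). Uninduced cells stood at 113, 116 and 110.2 CPM, just above the libraries with 2 extra copies, so that the cells with no extra copy were the high group. Epas1, which acts beside Hif1a, stood at 72.2, 68.3 and 72.3 CPM with 2 extra copies, against 104, 102 and 108 CPM with no extra copy (1.47-fold lower; log2 -0.56, SE 0.056, adjusted p = 1.07e-08), with uninduced cells between the groups at 78.5, 84.3 and 84.8 CPM. Akap2 (1.63-fold lower; log2 -0.71, SE 0.18, adjusted p = 0.0499) lost its call under many alternatives, and a gene on the same strand covers 84.4% of its exons.

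The actin cytoskeleton was the list with the most falls. Of 27 actin and contractile genes 20 were lower, none was higher, and the median log2 change was -0.354; between 16 and 23 fell in the alternatives, and 15 in every one. Acta2, the smooth muscle actin (ENSMUSG00000035783; GRCm38 chromosome 19, 34241090 to 34255590, minus strand), stood at 22.1, 26.2 and 21.6 CPM with 2 extra copies, against 49.1, 55.6 and 47.4 CPM with no extra copy (2.21-fold lower; log2 -1.15, SE 0.094, adjusted p = 2.51e-10). Uninduced cells held 17.3, 21.1 and 17.4 CPM, below both groups. Tpm1, a tropomyosin that winds along actin filaments, stood at 181, 194 and 189 CPM with 2 extra copies, against 254, 272 and 262 CPM with no extra copy (1.4-fold lower; log2 -0.49, SE 0.044, adjusted p = 1.23e-09), and uninduced cells held 159, 176 and 165 CPM. For both genes the cells with no extra copy were the highest of the 3 groups, and no library of theirs overlapped another group. Tagln fell 1.55-fold, Cald1 1.48-fold and Cnn2 1.47-fold, all of them proteins that bind actin and restrain its sliding over myosin. The strongly expressed filament genes fell by less: Flna 1.29-fold, Myh9 1.27-fold, Actn4 1.22-fold and Myl6 1.22-fold. The muscle actins Acta1 and Actc1 were low, at 12.7 ± 2.54 and 3.02 ± 1.11 CPM with no extra copy and 4.80 ± 0.655 and 0.790 ± 0.412 CPM with 2 extra copies (SD, n = 3).

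Many contractile genes carry a CArG box, the site of serum response factor (Srf), near their start. The consensus box was searched on both strands of the same 250 bases; by its letters it cannot share a base with the E-box. It stood in 1.47% of all promoters of the table and in 1.35% of the tested genes. In the actin list it stood in 8 of 24 promoters (33.3%): Acta1, Actc1, Cnn2, Myl6, Myl9 and Vcl, which fell, and Actg1 and Srf, which did not pass the test (-0.03 and -0.10 on the log2 scale). Other members of the list have no match to the consensus there and fell, among them Acta2, Tpm1, Cald1, Flna and Myh9. Tagln2, Tpm3, Cnn3 and Mrtfa have none either and were not called. Within the list a match to the consensus in these 250 bases thus did not set apart the members that fell. Boxes that deviate from the consensus or lie elsewhere were not searched, so a gene without a match may still hold a box. Among all tested genes that fell, 2.36% held the box. The 3 genes of the list that hold the box and had the smallest p are shown, with the box in capitals: Cnn2 (chr10:79988350-79988599, plus strand), Myl9 (chr2:156775214-156775463, plus strand) and Acta1 (chr8:123894776-123895025, minus strand).
Cnn2: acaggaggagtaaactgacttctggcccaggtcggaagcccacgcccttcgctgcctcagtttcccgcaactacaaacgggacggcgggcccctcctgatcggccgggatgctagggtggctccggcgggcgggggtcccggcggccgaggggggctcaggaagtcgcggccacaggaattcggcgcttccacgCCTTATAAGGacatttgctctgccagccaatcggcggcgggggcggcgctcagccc
Myl9: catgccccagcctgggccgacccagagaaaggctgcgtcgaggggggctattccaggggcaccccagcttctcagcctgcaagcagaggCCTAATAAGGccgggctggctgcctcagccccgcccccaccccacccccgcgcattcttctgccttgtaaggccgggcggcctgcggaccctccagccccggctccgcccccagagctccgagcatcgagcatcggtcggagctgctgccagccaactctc
Acta1: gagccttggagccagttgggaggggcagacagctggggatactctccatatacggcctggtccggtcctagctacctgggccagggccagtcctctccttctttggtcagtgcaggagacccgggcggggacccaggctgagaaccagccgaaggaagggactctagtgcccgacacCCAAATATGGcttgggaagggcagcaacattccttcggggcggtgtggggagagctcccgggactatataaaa
The first base of the box lies 56 bases before the start of Cnn2, 161 before that of Myl9 and 73 before that of Acta1. Cnn2, a calponin, stood at 72.6, 72.5 and 76.9 CPM with 2 extra copies, against 102, 108 and 118 CPM with no extra copy (log2 -0.55, SE 0.057, adjusted p = 2.13e-08). Myl9, the light chain of smooth muscle and non-muscle myosin, stood at 6.49, 6.50 and 7.53 CPM with 2 extra copies, against 18.4, 16.5 and 13.6 CPM with no extra copy (log2 -1.25, SE 0.15, adjusted p = 3.18e-07), and Acta1 at 4.21, 4.70 and 5.50 CPM with 2 extra copies, against 15.5, 12.2 and 10.5 CPM with no extra copy (log2 -1.40, SE 0.19, adjusted p = 2.35e-06). In all 3 the groups did not overlap, as in 93.5% of all genes that fell. These values say nothing of Srf binding, which was not measured.

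Matrix and adhesion genes fell alongside. Of 22 collagens, laminins and basement membrane genes 13 were lower and none higher, with a median of -0.313. Nid1, which links laminin to collagen IV, stood at 63.8, 57.3 and 55.3 CPM with 2 extra copies, against 85.8, 89.99 and 83.6 CPM with no extra copy (1.48-fold lower; log2 -0.57, SE 0.066, adjusted p = 1.53e-07). Col1a2, a chain of collagen I, stood at 23.3, 19.5 and 17.2 CPM with 2 extra copies, against 33.8, 38.5 and 36.9 CPM with no extra copy (1.84-fold lower; log2 -0.88, SE 0.1, adjusted p = 2.10e-07), and uninduced cells held 9.28, 10.1 and 10.6 CPM. Cells with no extra copy were again the highest of the 3 groups in both genes. Col18a1 fell 1.28-fold, Col4a1 and Col4a2 1.59-fold and 1.71-fold, and the laminin chains Lamc1 and Lama1 1.2-fold and 1.29-fold. At least 11 members fell in every alternative.

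Of 12 integrins and other matrix receptors 7 fell and 1 rose. Itga3, a laminin receptor chain, stood at 95.7, 101 and 92.9 CPM with 2 extra copies, against 137, 142 and 132 CPM with no extra copy (1.43-fold lower; log2 -0.51, SE 0.051, adjusted p = 1.12e-08), Itga5, a fibronectin receptor chain, fell 1.42-fold, and the laminin receptor Bcam 1.44-fold. Their common partner Itgb1 fell 1.19-fold. The proteoglycan Sdc4 was the member that rose (1.2-fold), a call lost without replicate 3 with 2 extra copies. Of 21 junction and cadherin genes 8 fell and none rose, led by the protocadherin Pcdh1 (1.85-fold; log2 -0.88, SE 0.095, adjusted p = 3.93e-08), plakoglobin Jup (1.29-fold) and alpha-catenin Ctnna1 (1.23-fold). E-cadherin, Cdh1, the main cadherin of ESCs, did not pass the test (log2 -0.02, SE 0.037, adjusted p = 0.829). DESeq2 called 5 of the 8.

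Keratins, annexins, S100 proteins and galectins gave the largest share of falls among the pathway lists, 14 lower of 17 and none higher, with a median of -0.443. Krt8, the keratin of simple epithelia, stood at 37.2, 50.05 and 41.1 CPM with 2 extra copies, against 58.8, 68.9 and 59.8 CPM with no extra copy (1.48-fold lower; log2 -0.57, SE 0.086, adjusted p = 4.05e-05), and its partner Krt18 fell 1.49-fold. Anxa6 fell 1.36-fold, Anxa2 1.8-fold and S100a11 1.32-fold. Every member's log2 change was below 0, from -0.848 to -0.227. Without replicate 2 with no extra copy 9 of them fell. Krt8 has near-identical copies. Of 16 genes of YAP and TEAD with their targets 9 fell and none rose, with a median of -0.297. The secreted targets Ccn1 and Ccn2 fell 1.58-fold and 1.24-fold, the feedback genes Amotl2 and Lats2 1.18-fold and 1.81-fold, and the factors Tead3, Tead4 and Wwtr1 1.55-fold, 1.59-fold and 1.22-fold. The coactivator Yap1 did not pass the test (log2 -0.08, SE 0.044, adjusted p = 0.213).

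**Figure D4:**
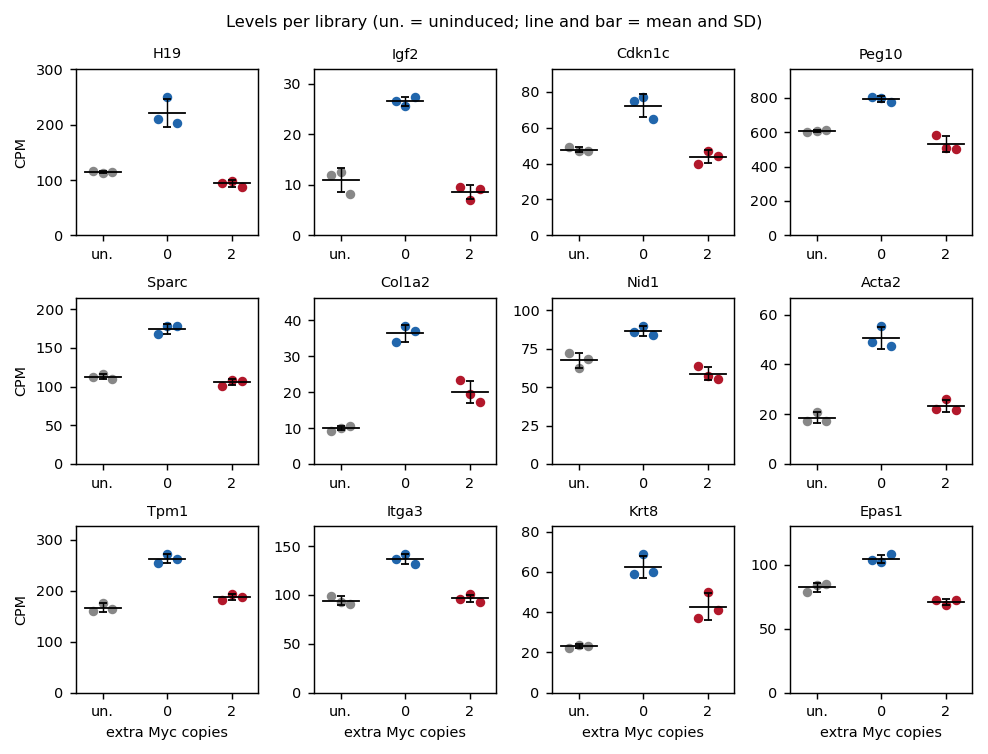
Level in CPM (y axis, linear, from 0) of 12 genes that fell, 1 panel per gene, with 1 point per library and a line and bar for the mean and SD of each group: uninduced (un.), no extra copy (0) and 2 extra copies (2). In all 12 panels the 3 libraries with no extra copy lie above the 6 others.

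Markers of other cell types were lower in part, and several of them are genes of these same lists. The summed level of 12 fibroblast or feeder markers was 129 to 138 CPM with 2 extra copies, 205 to 227 CPM with no extra copy and 86.4 to 91.6 CPM in uninduced cells. Of the 8 that were tested 4 fell, Acta2, Tagln, Col1a1 and Col1a2, and none rose. The other 4 did not pass the test, and log2 changes of the tested markers ran from -1.15 to 0.315. Dcn and Lum had at most 3 counts in every library. The sum of 9 trophectoderm markers was 191 to 207 CPM against 219 to 245 CPM, with Krt8, Krt18 and Eomes lower of 5 tested and Elf5 at most 3 counts. The sum of 11 markers of extraembryonic endoderm was 13.2 to 18.9 CPM against 21.8 to 24.8 CPM, with Dab2 lower of 5 tested, Ttr at 0 and Afp at most 3 counts; without replicate 1 with 2 extra copies 2 fell, and without replicate 3 of either population none. The sum of 9 neuroectoderm markers was 188 to 197 CPM against 206 to 220 CPM, and Pax6, Sox1, Map2, Nes and Dcx fell of 6 tested; without replicate 2 with no extra copy 2 of them did, and without replicate 3 of either population 3 did. Of 6 mesendoderm markers 1 was tested, and it did not pass the test. Acta2, Tagln, Krt8, Krt18, Col1a1 and Col1a2 are also members of the actin, keratin and matrix lists. Fewer cells of a type and less RNA per cell cannot be told apart in bulk samples, and the part of such cells in the falls was not tested.

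Imprinted genes and the insulin-like growth factor (IGF) axis held several of the larger falls. H19, a maternally expressed long non-coding RNA beside Igf2 (ENSMUSG00000000031; GRCm38 chromosome 7, 142575529 to 142578143, minus strand), stood at 94.5, 99.2 and 87.8 CPM with 2 extra copies, against 211, 250.1 and 203 CPM with no extra copy (2.39-fold lower; log2 -1.26, SE 0.074, adjusted p = 1.26e-07). Uninduced cells held 116, 113 and 116 CPM, nearer to the cells with 2 extra copies. Igf2, its paternally expressed neighbour, stood at 9.64, 7.05 and 9.27 CPM with 2 extra copies, against 26.5, 25.7 and 27.4 CPM with no extra copy (3.03-fold lower; log2 -1.60, SE 0.14, adjusted p = 5.10e-10). Both genes of this locus were thus highest with no extra copy, with no overlap. Of 14 genes of the IGF axis 8 fell and none rose. Igfbp5, an IGF binding protein, fell 4.29-fold from a low level, Irs2, the substrate of the insulin and IGF1 receptors, 1.53-fold, and the receptor gene Igf2r 1.16-fold. Without replicate 2 with no extra copy 5 fell. Igf2 shares near-identical sequence with another transcript.

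Of 22 other imprinted genes 9 fell and 2 rose. Peg10, a gene derived from a retrotransposon and needed in the placenta, stood at 586, 508 and 504 CPM with 2 extra copies, against 804, 799 and 775 CPM with no extra copy (1.49-fold lower; log2 -0.58, SE 0.043, adjusted p = 1.23e-09). Peg3 fell 1.61-fold, Mest 1.38-fold and Nnat 1.79-fold. The non-coding RNAs Meg3 and Rian of 1 cluster fell 1.14-fold and 1.13-fold, whereas Dlk1 of the same cluster rose 1.69-fold from 4.61 ± 1.59 to 8.05 ± 1.31 CPM (SD, n = 3). Phlda2, next to Cdkn1c on chromosome 7, rose 1.39-fold while Cdkn1c fell 1.67-fold. The members that rose were 1 without replicate 3 of either population. Maternally and paternally expressed genes were found in both directions.

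Some pluripotency factors were lower, by little in the core and by more in the naive set. Of 13 core genes 3 fell and none rose: Nanog 1.19-fold, Pou5f1 1.1-fold and Sox2 1.09-fold. Nanog stood at 195, 187 and 200.5 CPM with 2 extra copies, against 227, 230.2 and 238 CPM with no extra copy (log2 -0.25, SE 0.042, adjusted p = 5.41e-05). Without replicate 2 with 2 extra copies 1 fell, and with library size alone 5 did. Of 17 naive genes 8 fell and 1 rose, with a median of -0.196. Tfcp2l1, a factor of the naive state, stood at 109, 88.2 and 95.8 CPM with 2 extra copies, against 130.2, 129.7 and 150.5 CPM with no extra copy (1.39-fold lower; log2 -0.47, SE 0.079, adjusted p = 0.00111), and uninduced cells held 97.2, 86.2 and 96.2 CPM. Gbx2 fell 1.4-fold, Klf4 1.23-fold, Klf2 1.15-fold, and Prdm14 1.84-fold from a low level. Fbxo15 rose 1.16-fold. Without replicate 2 with no extra copy 4 fell, and exons on the other strand cover 43.5% of Gbx2. For Klf4, Klf2 and Tfcp2l1 the uninduced mean was near that with 2 extra copies, at 55.8 CPM, 154 CPM and 93.2 CPM. Of 17 formative and primed genes 5 fell and 1 rose. Foxd3 fell 1.63-fold, Cdh2 1.54-fold, Pou3f1 1.27-fold and Zic2 1.23-fold, and the DNA methyltransferase Dnmt3b rose 1.18-fold. The falls were thus not limited to naive genes.

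Genes of the two-cell-like state, a rare ESC state that resembles the two-cell embryo, rose. Of 14 tested 8 were higher and none lower, with a median of 0.543. Zscan4d, which acts at telomeres, stood at 49.6, 53.7 and 50.9 CPM with 2 extra copies, against 35.4, 27.9 and 35.7 CPM with no extra copy (1.59-fold; log2 0.67, SE 0.089, adjusted p = 1.92e-06), and Zscan4b at 71.7, 72.5 and 75.6 CPM with 2 extra copies, against 52.0, 48.1 and 50.7 CPM with no extra copy. Uninduced cells were lowest, at 21.6, 26.2 and 25.1 CPM for Zscan4d. The deubiquitinase genes Usp17la (1.56-fold) and Usp17le (1.47-fold) and the factor Zfp352 (2.02-fold) were low and also higher. The summed level of 8 markers of this state was 358 to 373 CPM with 2 extra copies and 217 to 296 CPM with no extra copy, without overlap. The count of the list was 4 without replicate 1 with 2 extra copies, 4 and 5 without replicates 2 and 3 with no extra copy, and 4 with DESeq2. Zscan4f lost its call when only the 6 libraries were used (adjusted p = 0.0794). The Zscan4 genes are near-identical copies, so the split of reads between them is uncertain. Their calls are therefore not independent of each other, and the count of the list may repeat 1 signal.

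Signalling lists held from 1 to 4 calls each, downward in all but the Nodal and Activin list. Of 13 BMP and Id genes 4 fell: the inhibitors of differentiation Id2 (1.82-fold), Id3 (1.52-fold) and Id4 (2.33-fold) and the feedback inhibitor Smad6 (1.62-fold), all at low levels, such as 6.14, 6.14 and 7.24 CPM with 2 extra copies, against 11.6, 12.3 and 11.9 CPM with no extra copy for Id2. Without replicate 2 or replicate 3 with 2 extra copies, or replicate 2 with no extra copy, 2 fell. Of 16 FGF4 and ERK feedback genes 4 fell: Fgf4 itself (1.16-fold), the receptors Fgfr1 (1.11-fold) and Fgfr2 (1.3-fold), and the ERK phosphatase Dusp6 (1.29-fold; log2 -0.37, SE 0.065, adjusted p = 9.31e-05). Here 2 fell without replicate 3 with 2 extra copies or without replicate 2 or replicate 3 with no extra copy. Of 11 LIF and STAT3 genes Jak1 (1.24-fold), Jak2 (1.49-fold) and the target kinase Pim1 (1.12-fold) fell, and 1 did without replicate 3 with 2 extra copies or replicate 2 with no extra copy; DESeq2 called none. Of 14 Nodal and Activin genes the inhibitors Lefty1 and Lefty2 rose, Lefty1 from 229, 272 and 230 CPM to 286, 314 and 293 CPM (1.21-fold; log2 0.28, SE 0.059, adjusted p = 0.00433) and Lefty2 1.21-fold, in every alternative; 1 member fell without replicate 1 with 2 extra copies. Of 11 WNT genes only Tcf7l1 fell (1.1-fold), a call lost without any 1 library other than uninduced replicate 1 and replicate 3 with no extra copy. Of 9 DNA methylation genes Dnmt3b rose, and Dnmt3l (1.11-fold) and Tet3 (1.37-fold) fell. DESeq2, and the fit without replicate 2 with 2 extra copies, gave no fall, and 1 fell without replicate 3 with 2 extra copies, replicate 2 or replicate 3 with no extra copy, or uninduced replicate 2 or replicate 3.

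Stress lists were mixed. Of 20 ATF4 and CHOP targets 6 rose, all of them genes of amino acid supply: Phgdh, Psat1, Shmt2, Slc3a2, the asparagine synthetase Asns (1.1-fold) and the proline enzyme Aldh18a1 (1.19-fold). The factor Ddit3 (CHOP) fell 1.37-fold, a call lost without replicate 2 or replicate 3 with 2 extra copies or replicate 1 with no extra copy. Uninduced cells were above both populations for Asns, at 395 CPM, and for Ddit3, at 26.7 CPM. Of 17 endoplasmic reticulum genes 4 fell and none rose: Xbp1 (1.19-fold; log2 -0.25, SE 0.058, adjusted p = 0.00214), Dnajc3 (1.24-fold), Calr (1.09-fold) and Pdia6 (1.08-fold), and 2 fell without replicate 2 with 2 extra copies or without replicate 1 or replicate 2 with no extra copy, and 1 rose without replicate 1 with 2 extra copies. Of 13 immediate early and heat shock genes Jun (1.55-fold), Zfp36 (1.32-fold) and Hspb1 (1.21-fold) fell and Hsph1 rose (1.1-fold), which DESeq2 did not call. Of 18 genes in the list of HIF targets only Pdk1 (1.19-fold) and Mxi1 rose. Without uninduced replicate 1 or without replicate 2 or replicate 3 with no extra copy 1 did. This list leaves out Ldha, Eno1, Pgk1, Slc16a3, Slc2a1 and Slc2a3, which are counted with glycolysis above, so it does not cover all HIF targets.

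Lysosomal and lipid genes were lower in part. Of 38 lysosome and autophagy genes 8 fell and none rose, led by Psap, the precursor of the saposins that aid lipid breakdown, at 224, 221 and 223 CPM with 2 extra copies, against 273, 258 and 258 CPM with no extra copy (1.18-fold lower; log2 -0.24, SE 0.039, adjusted p = 4.25e-05). Grn fell 1.19-fold, the cholesterol exporters Npc1 and Npc2 1.23-fold and 1.16-fold, and the autophagy receptor Sqstm1 1.1-fold. Without replicate 1 or replicate 2 with 2 extra copies or uninduced replicate 2, 5 fell, and without replicate 2 with no extra copy 4; 1 rose without replicate 1 with 2 extra copies. Of 28 sterol and fatty acid genes 5 fell and 1 rose. The desaturases Scd1 and Scd2 fell 1.29-fold and 1.15-fold, Mvd and Fdps of the mevalonate route 1.25-fold and 1.13-fold, and the regulator Srebf1 1.13-fold, while Idi1 rose 1.13-fold. Without replicate 1 with 2 extra copies 3 fell. Idi1 lost its call without replicate 3 with 2 extra copies or replicate 1 or replicate 2 with no extra copy, and 2 members rose without uninduced replicate 2 or replicate 3 with no extra copy. Scd2 and Idi1 share near-identical sequence with other transcripts.

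Transcript length moved with part of these results. The correlation over genes between a library's deviation from the mean level and log2 transcript length, given as a description, was 0.0212, -0.147 and -0.189 in replicates 1, 2 and 3 with 2 extra copies. In the replicates with no extra copy it was -0.017, 0.0165 and 0.0492. Among 10 equal bins of genes by length, the longest, of at least 6803 bases, had a median log2 change of -0.102; 2.69% of its genes rose and 13.9% fell. With the trend of each library taken out as an offset, that median was -0.0114, and without replicate 1 with 2 extra copies it was -0.145. The lists described above differ in length, with a median of 2923 bases for ribosome biogenesis, 3487.5 for mitosis, 2460 for actin and 6270.5 for collagens and laminins. With the offset 9.72% of all genes rose and 7.18% fell, 41 ribosome biogenesis and 25 mitosis genes rose, and 20 actin, 15 matrix and 15 keratin and annexin genes fell. Of the IGF axis 6 fell with it, of the junction genes 7 and of the integrins 5. The median falls of these lists were smaller with the offset. Their log2 change went from -0.313 to -0.225 for matrix, -0.354 to -0.293 for actin and -0.443 to -0.427 for keratin and annexin genes. It went from -0.239 to -0.175 for the IGF axis and from -0.166 to -0.104 for junction genes. The median rises were 0.23 with the offset for both ribosome biogenesis and mitosis, against 0.219 and 0.208. The cause of the trend was not tested.

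**Figure D5:**
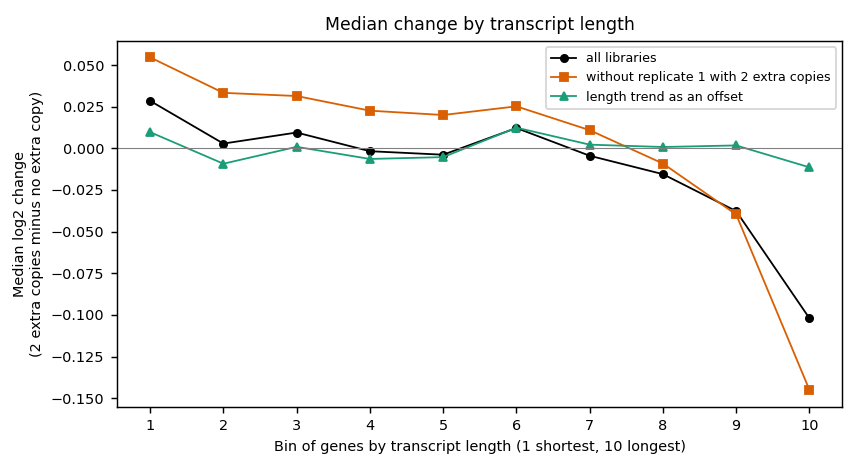
Median log2 change between cells with 2 extra copies and cells with no extra copy (y axis) in 10 equal bins of genes ordered by transcript length (x axis, 1 shortest, 10 longest), for the analysis as reported, with the length trend of each library as an offset, and without replicate 1 with 2 extra copies. The longest bin lies at -0.102, at -0.0114 with the offset and at -0.145 without replicate 1.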

How the data were processed

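RNA of 9 sorted ESC libraries was sequenced by the authors. What they deposited are expected counts for each gene, estimated by the authors with RSEM (version 1.17 per the submitters' processing notes) on GRCm38, annotation release 84 per the file headers. Picard, cutadapt and limma appear in the same notes with no stated use. Which aligner was used is not given in the sources used. The labels repeat the drug treatment for the uninduced samples; titles and design text were taken as the group. The design text calls the samples biological replicas without saying that they are separate cultures, so p-values measure the spread between these samples, which may be technical.

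Expected counts were rounded to whole numbers and analysed in R 4.3.3 with edgeR 4.0.16 (filterByExpr by group, TMM scaling, robust quasi-likelihood fit and F-test). All 9 libraries entered with 1 coefficient for each group, and p-values were adjusted by Benjamini-Hochberg over 13424 genes. The tested genes held 99.8% of all counts. Adjusted p-values are those of this fit where no other tool is given, and a gene is called at an adjusted p below 0.05. Standard errors were obtained from the log2 change and its F statistic. The procedure was tested on simulated counts. Alternatives were DESeq2 1.42.0, voom of limma 3.58.1, other scaling and filters, leaving out each library, the replicate number as a block, and length and GC trends as offsets.

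The members, the 52 pathway and 7 marker lists and the rules were chosen with earlier results of these data known. Named were the 12 largest rises and 12 largest falls with a mean of at least 50 CPM and no overlap between groups, and up to 3 called members per list and direction by smallest p; other members are given by value beside their list's count. Some genes these rules name are not reported here, though list counts include them. Coordinates, lengths and symbols came from GENCODE M21 (35432 of 35771 identifiers matched), promoters from RefSeq. A gene is described as having near-identical copies when a transcript of another gene matched 1 of its transcripts with at least 95% identity over at least 500 bases or at least 50% of its longest transcript (minimap2 2.31-r1302), and as overlapped when exons of another tested gene covered at least 15% of its own (bedtools 2.31.1). Beyond those said above this held by copies for Actg1, Ccnb1, Ccnd3, Cycs, Diablo, Dppa5a, Eif4e, Fbl, Fdps, Hnrnpa1, Hspb1, Lats2, Meg3, Myl6, Nop56, Pcna, Pfkp, Pgk1, Psma3, Ruvbl1, S100a11, Sms, Snrpn, Suclg2, Tcp1, Uqcrc2 and Zfp352, and by overlap for Bid (17.7%), Htra2 (25.6%), Mest (23.1%), Sqstm1 (17.3%) and Vcl (25.5%) with a gene on the other strand and for Snrpn (27.3%) with one on its own. Whether strand was used in counting is not stated.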

Additional observations from a re-analysis of the deposited data

How the results depend on the processing

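Over the 21 alternatives no called gene named or listed here reversed its direction, and Myc kept its call in each. DESeq2 called 643 genes higher and 418 lower. With 1 library left out, from 751 to 1465 genes were higher and from 647 to 1112 lower, the lowest without replicate 2 with no extra copy and the highest without replicate 1 with 2 extra copies. Of the 2148 called genes 875 (40.7%) were called in every alternative, 546 higher and 329 lower. Of 118 list counts, 63 stayed within 1.5 times their value in every alternative, and the others moved by more in at least 1 alternative. The 63 include counts that were 0 throughout, such as the falls in ribosome biogenesis genes and the rises in actin genes. They therefore overstate how stable the counts with calls were. For libraries left out the values stand beside the lists. DESeq2 gave fewer rises in RNA polymerase III (1), pyrimidine (3), citric acid cycle (3), respiratory chain (5), mitochondrial ribosome (5), amino acid transporter (1), sterol (0), proteasome (1), splicing (7), DNA replication (1), HIF target (1) and imprinted genes (1). It gave fewer falls in polyamine (0), sterol (2), lysosome (3), DNA replication (3), G1/S (3), BCL2 (0), caspase (1), cell competition (1), naive (4), WNT (0), BMP (1), FGF (1), ATF4 (0) and endoplasmic reticulum genes (2) and in endoderm (0) and neuroectoderm markers (2). With library size alone the rises were 1 in RNA polymerase III, amino acid transporters, proteasome, DNA replication and HIF targets, 3 in pyrimidine and citric acid cycle genes, 6 in respiratory chain and splicing genes and 0 in sterol and heat shock genes, and the falls were 2 in polyamine, 8 in sterol and 1 in mitosis genes. With only the 6 libraries compared, 1 RNA polymerase III, 3 pyrimidine, 1 proteasome and 1 HIF gene rose and 3 G1/S, 1 BCL2 and 1 DNA methylation gene fell. With no filter on low counts 3 pyrimidine and 2 sterol genes rose, 1 BCL2 and 0 WNT genes fell, and with at least 50 counts 1 imprinted gene rose and 1 BCL2 and 2 BMP genes fell. RLE factors gave 2 BCL2 rises, 3 G1/S falls and no WNT fall, and voom 1 HIF rise and 2 endoderm marker falls. With the length offset 4 RNA polymerase III, 3 sterol, 2 formative and 1 endoplasmic reticulum gene rose and 2 Myc network, 2 polyamine and 1 DNA methylation gene fell. With the length offset and the replicate block together 17 splicing genes rose and 3 neuroectoderm markers and 1 BCL2 gene fell. With the GC offset 7 splicing, 3 BCL2 and 1 HIF gene rose and 1 cell competition, 0 BCL2 and 0 WNT genes fell. Same-numbered libraries of the 2 populations did not deviate together (r = -0.0157, 0.0112 and -0.00976 over genes), so the number is not taken as a pairing; with it as a replicate block 1177 genes were higher and 1056 lower, with 2 BCL2 rises, 1 BCL2 fall and 1 DNA methylation fall. With totals of 4165286 to 8872303 counts, small changes in weakly expressed genes could not be detected.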

Other observations

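The median log2 change of the tested genes of a chromosome ran from -0.0477 on chromosome X (490 genes) to 0.0203 on chromosome 12 (470 genes), and chromosome 15, which holds Myc, stood at 0.00904 (507 genes). These medians run over genes that went both ways and say nothing of where the called genes lie.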
